A study of Drosophila melanogaster with 20 samples.

Results

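The 8 control libraries of this Drosophila melanogaster series were the 4 PA+PB and the 4 WT RNA-seq libraries, out of 20 libraries in all, and they were taken by the genotype given in the labels. PA+PB embryos carried the null allele Ada2b[1] over Ada2b[842] on the third chromosome, together with an elav-Gal4 driver, a UAS-GFP reporter and single-copy transgenes for the splice isoforms Ada2b-PA and Ada2b-PB, each under Ada2b genomic regulatory sequence. WT embryos carried the same elav-Gal4 and GFP elements and an intact Ada2b locus, and no transgene. The other 12 libraries (Ada2b null, PA alone and PB alone) served only as points of reference. Each library came from a pool of 6 GFP-positive embryos picked by hand at stages 12 to 14, apart from WT replicate 3, whose label gives stages 12 to 15. The study's methods call the 4 pools of a genotype biological replicates. Neither the methods nor the labels say whether they came from separate collections. The p-values thus measure the spread between these libraries, part of which may be technical.

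Ada2b is an adaptor protein that joins the histone acetyltransferase Gcn5 and raises its activity toward nucleosomes. Alternative splicing of the gene gives isoforms that enter different Gcn5 complexes. Ada2b-PB belongs to SAGA, a large transcription coactivator, and to the smaller ADA complex. Ada2b-PA belongs to the CHAT complex, which forms around the C-terminal product of the chiffon gene. The N-terminal product of that gene, a separate polypeptide, is the Dbf4 orthologue. Stages 12 to 14 cover germ band retraction, head involution and dorsal closure, when neurons, muscles and tracheae differentiate and the cuticle has hardly begun to form. Setting PA+PB against WT asks how far embryos whose Ada2b comes from the pair of transgenes share the transcriptome of embryos with the endogenous gene.

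The libraries differed in depth and in makeup before any comparison between the genotypes. Counts on genes numbered between 4828612 and 13973822 in PA+PB libraries and between 27944272 and 35678749 in WT libraries, without overlap (2-sided exact permutation test over 70 splits, p = 0.0286, the smallest that these splits can give). PA+PB replicate 1 stood apart by 63.2% of reads not aligned, against 8.81 to 14.9% in the other 7 libraries. The median SD of log2 CPM (counts per 1e+06 counts on genes, scaled by TMM factors) was 1.04 over the PA+PB libraries and 0.55 over the WT libraries. Correlations of log2 CPM between pairs of libraries lay between 0.710 and 0.953, and 3 of the 4 PA+PB libraries and 1 of the 4 WT libraries had their nearest neighbour in the other genotype.

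Markers of differentiating tissues spread over all 8 libraries, and 2 libraries were extreme for several of them. In PA+PB replicate 3, the neuroblast gene worniu (wor), the Hox gene Abd-B and the endoderm gene GATAe were at 0, whereas every other library held between 4.04 and 46.9 CPM of wor, between 37.7 and 158 CPM of Abd-B and between 14.1 and 68.6 CPM of GATAe. That library had 20.7% of its gene counts on ribosomal proteins, against 10.5 to 14.9% in the other 7. WT replicate 1 had the most counts on muscle and cuticle genes, with 5117 CPM of the muscle myosin gene Mhc and 2134 CPM of the cuticle protein gene Cpr65Ea, against 12.3 to 1399 CPM and 0 to 40.6 CPM in the other 7 libraries. WT replicate 4 was at the other end, lowest for 11 of 20 muscle genes. The mean log2 CPM of the muscle genes was 4.68 there, 8.14 and 8.71 in PA+PB replicates 1 and 4 and 9.92 in WT replicate 1. WT replicate 4 also had the lowest mean for neuron and cuticle genes. The labels give all of these libraries stages 12 to 14, and the part of stage, pool makeup or RNA quality in these levels was not tested. The main counts, medians and shares are given below also without PA+PB replicate 3 and WT replicate 1, a setting chosen after seeing the data, these marker levels among them. In pools of embryos, fewer cells of a type and less RNA per cell cannot be told apart.

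Ada2b itself was detected in every control library. It had 163, 299.5, 347 and 203 CPM in PA+PB libraries 1 to 4, against 172, 106, 96.0 and 143 CPM in WT libraries 1 to 4. Only WT replicate 1 reached above the lowest PA+PB library, and the means were 253 ± 85 CPM in PA+PB and 129 ± 35 CPM in WT (SD, n = 4 each). The fitted log2 fold change was 0.77 ± 0.28 (SE), a level 1.71-fold that of WT embryos, with an unadjusted p of 0.0226 in edgeR's quasi-likelihood test and a Benjamini-Hochberg adjusted p of 0.552, so that it did not pass the test over all genes. It kept this direction in 21 of 21 alternative settings, with values of 0.66 to 1.04, and passed in 0 of them. Without PA+PB replicate 3 and WT replicate 1 it was 0.89 (adjusted p = 0.181). Gene counts do not separate the transcript isoforms or the null alleles from the transgenes, which carry Ada2b sequence too. With normalization over all 20 libraries, Ada2b was at 30.7 to 47.1 CPM in null libraries, which have no transgene. On that scale it was at 202 to 368 CPM in PA+PB, 109 to 175 CPM in WT, 185 to 248 CPM in PA and 106 to 192 CPM in PB libraries.

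The Ada2b locus lies at 3R:8236632-8240515 on the minus strand (dm6) and its 3′ end overlaps PolI on the opposite strand, a gene whose log2 fold change was -0.02 ± 0.25. Of 22 genes within 50 kb, 11 had enough counts to be tested and 0 were called, beside 0.0733% of all genes tested. The neighbour upstream, CG9636, ended 0.232 kb from Ada2b and had 76.9, 92.8, 175 and 102 CPM in PA+PB libraries, against 87.7, 107, 72.6 and 91.2 CPM in WT libraries. Its values overlapped, as did those of the replication helicase gene Mcm2, with a log2 fold change of -0.10, and of RPA1, with 0.29. The largest of the 11 was CG11672, a gene of few counts at the far edge of the window, with a log2 fold change of 3.14 and an adjusted p of 0.760.

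**Figure D1:**
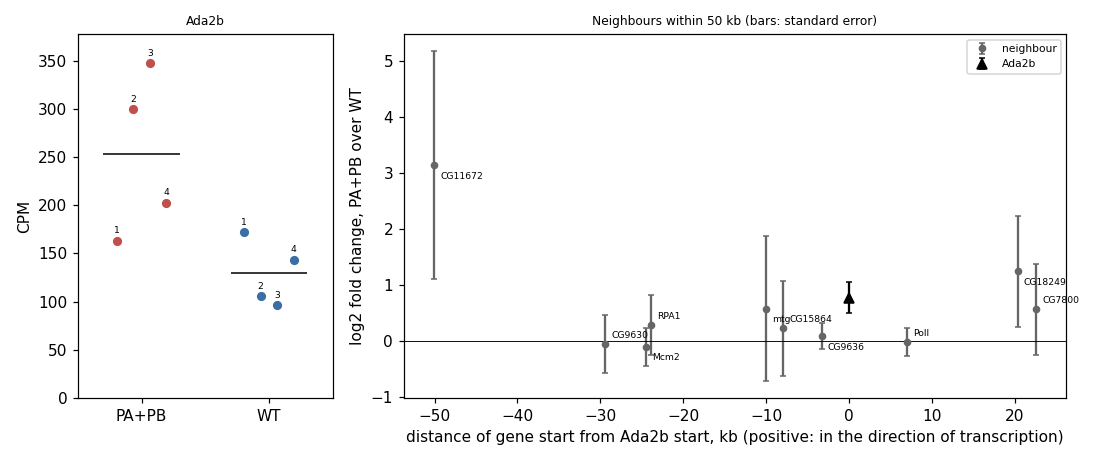
Left, Ada2b level in each library (CPM; numbers mark the replicate, black lines the mean), with PA+PB at 163 to 347 CPM and WT at 96.0 to 172 CPM. Right, log2 fold change (PA+PB over WT, bars are SE) of Ada2b and its tested neighbours other than ato, which had too few counts for a usable SE, against the distance of their start from that of Ada2b in kb, where Ada2b is at 0.77 and PolI at -0.02.

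A total of 7 of 9550 genes tested passed an adjusted p under 0.05 with an absolute log2 fold change of at least 0.5, or 0.0733%, and all 7 were lower in PA+PB embryos. Of these, 6 were noncoding RNAs of the basic RNA machinery or of unassigned function and 1 was protein-coding. The unadjusted p was under 0.05 for 770 genes, 121 of them higher and 649 lower. In the same libraries fitted together with the other 12, 2 genes were called, 7SLRNA:CR32864 and snoRNA:U3:54Ab. The median log2 fold change over all genes tested was -0.20, which became -0.11 with DESeq2 size factors and 0.07 with all 20 libraries in 1 fit. The fit took out 1 factor of unwanted variation, built on differences between libraries of 1 genotype, which made up 51.8% of the variance within genotypes, so that fitted folds differ from ratios of the means.

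The most strongly separated gene was 7SLRNA:CR32864, the RNA scaffold of the signal recognition particle, which carries nascent secretory proteins to the endoplasmic reticulum. It lies at 3R:6822500-6822798 on the plus strand and is transcribed by RNA polymerase III. Its level was 41.4, 117, 372 and 85.7 CPM in PA+PB libraries 1 to 4, against 1911, 3256, 2108 and 3532 CPM in WT libraries 1 to 4. The groups did not overlap, and the highest PA+PB library was again replicate 3. The log2 fold change was -4.97 ± 0.29 with an adjusted p of 0.000604. The second copy of the RNA, 7SLRNA:CR42652 at 3R:6820131-6820429 on the minus strand, had 55.4, 144, 366 and 217 CPM in PA+PB libraries, against 961, 1466, 909 and 1245 CPM in WT libraries. Those values did not overlap either, although the log2 fold change of -2.93 stayed above the threshold, with an adjusted p of 0.0931. The protein subunits of the particle, picked for their role after the RNA was seen, were not called: Srp72 had a log2 fold change of -0.41, Srp54k of -0.40, Srp68 of -0.33, Srp9 of -0.16, Srp14 of 0.00 and Srp19 of 0.56.

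**Figure D2:**
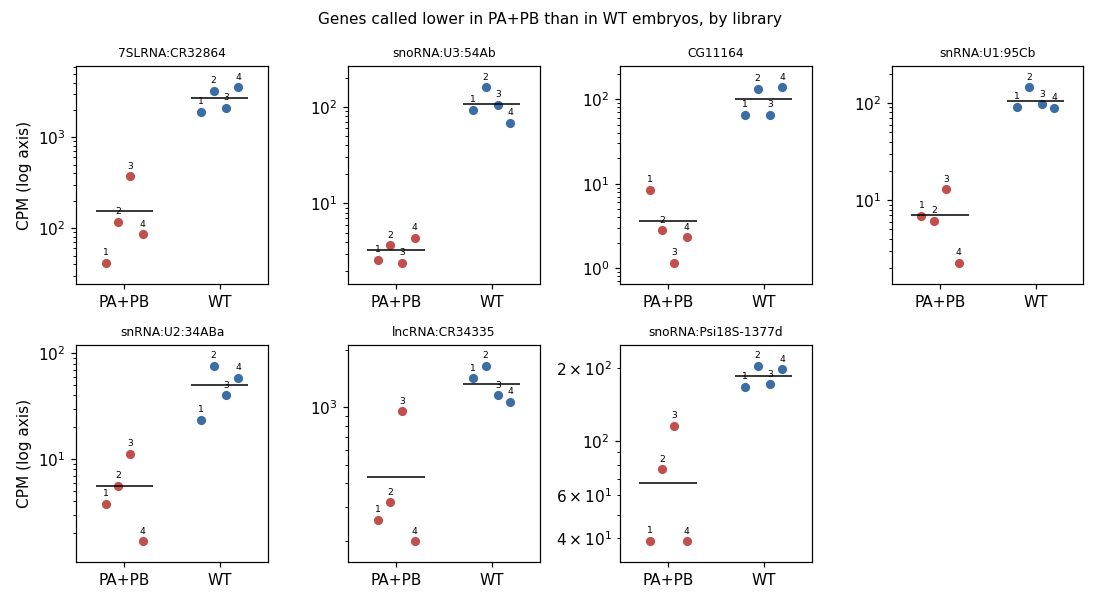
Levels of the 7 called genes in each library (CPM on a log axis; numbers mark the replicate, black lines the mean), PA+PB left of WT. In every panel the 4 PA+PB points lie below the 4 WT points, with PA+PB replicate 3 at 953 CPM of lncRNA:CR34335 close to the lowest WT value of 1064 CPM.

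Among the called spliceosomal and nucleolar RNAs, snoRNA:U3:54Ab (2R:17145617-17145826), a copy of the U3 RNA that guides early cleavage of the rRNA precursor, had 2.63, 3.71, 2.42 and 4.39 CPM in PA+PB libraries, against 93.1, 158, 104 and 68.7 CPM in WT libraries. Its log2 fold change was -4.94 ± 0.41 (adjusted p = 0.00568). A copy of the U1 RNA, which pairs with 5′ splice sites, was the next: snRNA:U1:95Cb (3R:23827870-23828033) had 6.91, 6.09, 12.9 and 2.26 CPM in PA+PB libraries, against 91.5, 145, 96.7 and 89.8 CPM in WT libraries. The log2 fold change was -4.32 ± 0.44 (adjusted p = 0.0193), and every PA+PB library lay far under the lowest WT library for both RNAs. The U1 copy lies inside CG34355 on the same strand, and that host gene, at 3.38 to 17.7 CPM in PA+PB and 2.74 to 105 CPM in WT libraries, overlapped between the genotypes. A copy of the branch-site RNA U2, snRNA:U2:34ABa (2L:13211925-13212116), had 3.78, 5.60, 11.2 and 1.68 CPM in PA+PB libraries, against 23.5, 76.2, 40.2 and 59.0 CPM in WT libraries. Its log2 fold change was -3.75 ± 0.46 (adjusted p = 0.0418).

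The box H/ACA RNA snoRNA:Psi18S-1377d, which guides a pseudouridine of 18S rRNA, was the called gene with the smallest change. It is encoded within the ribosomal protein gene RpS7 (3R:30207156-30207291, minus strand) and had 39.1, 76.7, 115 and 38.8 CPM in PA+PB libraries, against 167, 204, 172 and 198 CPM in WT libraries. The groups were apart without overlap, with a log2 fold change of -1.87 ± 0.21 and an adjusted p of 0.0335. RpS7, its host, was at 1213 to 2097 CPM in PA+PB libraries and at 1245 to 1685 CPM in WT libraries, with a log2 fold change of -0.02 ± 0.18, so that the RNA and its host gene had different values in the same libraries.

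The long noncoding RNA lncRNA:CR34335, a short abundant transcript inside DIP-alpha (X:3545750-3546110, minus strand), had 258, 317, 953 and 198 CPM in PA+PB libraries, against 1419, 1649, 1153 and 1064 CPM in WT libraries. PA+PB replicate 3 came within reach of the lowest WT library, and the log2 fold change was -2.25 ± 0.28 (adjusted p = 0.0418). DIP-alpha, which encodes a cell surface protein of the immunoglobulin superfamily, had a log2 fold change of -0.20 ± 0.42. The only protein-coding gene called was CG11164 (X:13668014-13669573), for which the annotation gives no name. It had 8.38, 2.80, 1.15 and 2.32 CPM in PA+PB libraries, against 65.6, 132, 65.2 and 137 CPM in WT libraries, a log2 fold change of -4.78 ± 0.61 (adjusted p = 0.0452). In both genotypes its 4 libraries lay well away from those of the other.

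Just outside the threshold were CG3655, with 113 to 178 CPM in PA+PB libraries and 301 to 393 CPM in WT libraries (log2 fold change -1.32, adjusted p = 0.0901), and the paired U3 copy snoRNA:U3:54Aa (-2.33, adjusted p = 0.134). Next came pastrel (pst), a gene of antiviral defence, with 4.72 to 28.0 CPM in PA+PB libraries and 60.3 to 106 CPM in WT libraries, and Drsl5, a gene of the Drosomycin family of antifungal peptides, which was at 0 in 3 PA+PB libraries. Over all genes tested, 343 (3.59%) had all 4 PA+PB levels below all 4 WT levels and 109 (1.14%) had all 4 above. Among the 109 was the noncoding RNA lncRNA:CR40469 on X, with 632, 362, 717 and 245 CPM in PA+PB libraries, against 213, 16.8, 24.7 and 18.03 CPM in WT libraries. Its log2 fold change of 2.92 had an adjusted p of 0.531, and WT replicate 1 was close to the lowest PA+PB library. It passed without that WT library, at 4.50 with an adjusted p of 0.00652, and without it and PA+PB replicate 3, at 4.37 with an adjusted p of 0.00213. Hsp70Aa, a heat-inducible chaperone gene, lay among the 343, at 0 to 0.41 CPM in PA+PB libraries and 2.56 to 7.12 CPM in WT libraries, with an adjusted p of 0.481.

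**Figure D3:**
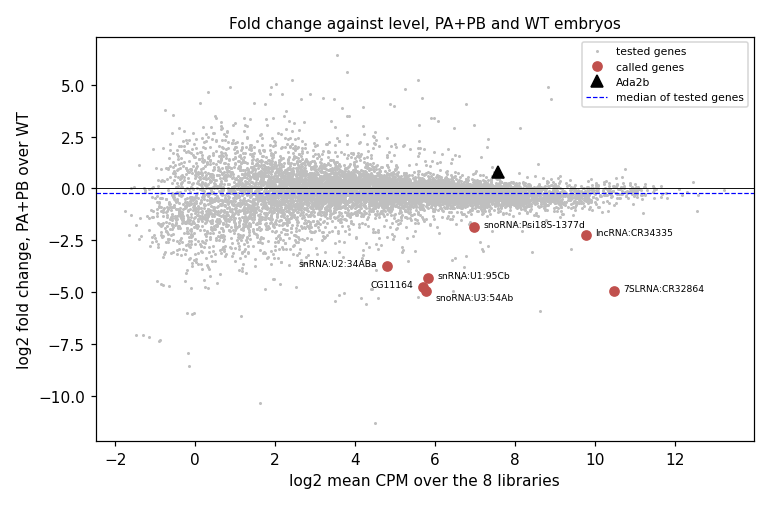
Log2 fold change (PA+PB over WT, 1 factor) of each of the 9550 genes tested against its mean level (log2 CPM), with the 7 called genes in red and named, Ada2b as a black triangle and the median of -0.20 as a dashed line. The called genes all lie below 0, from -1.87 to -4.97, and Ada2b lies at 0.77.

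Of the 7 called genes, 5 belong to families with near-identical or similar copies elsewhere in the genome, whose counts depend on which reads could be placed on 1 copy alone. The authors' counting left out reads with several alignments, which made up 23.5 to 71.6% of the PA+PB columns and 45.6 to 62.7% of the WT columns. The copies of a family did not all move the same way. In the U5 pair of the tri-snRNP at 38AB, snRNA:U5:38ABa (2L:19811948-19812074) had 200, 114, 258 and 61.5 CPM in PA+PB libraries, against 27.8, 22.0, 12.9 and 10.5 CPM in WT libraries, all 4 above all 4. The other copy, snRNA:U5:38ABb (2L:19816414-19816540), had 4.11, 0.165, 0 and 0.580 CPM in PA+PB libraries, against 26.5, 44.6, 45.2 and 33.1 CPM in WT libraries, all 4 below all 4. Neither passed the test (adjusted p = 0.192 and 0.166), and the share of 38ABa in the pair was 98.0 to 100% in PA+PB libraries and 22.2 to 51.2% in WT libraries. It was 40.5 to 69.9% in null libraries, 71.2 to 100% in the PA libraries with counts of the pair and 25.6% in PB replicate 4, the only such PB library. The share of U1:95Cb in the sum of 95Cb and its neighbour 95Cc was 4.91 to 17.1% in PA+PB libraries, 63.2 to 73.1% in WT libraries, 59.8 to 71.4% in Ada2b null, 27.7 to 66.3% in PA and 2.40 to 41.2% in PB libraries, so that low shares were found in PB libraries too. The 95Cc copy itself had 33.4 to 181 CPM in PA+PB and 35.6 to 71.3 CPM in WT libraries, which overlapped.

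With the copies of each family summed, 7SL stayed farthest apart. Its sum was 350 ± 274 CPM in PA+PB and 3847 ± 1044 CPM in WT libraries (SD, n = 4 each), without overlap. With every family entered as 1 row, a setting chosen after seeing the data, 7SL was the 1 row called (log2 fold change -4.01 ± 0.39, adjusted p = 0.0345). The U2 sum was 27.0 ± 10.6 CPM in PA+PB and 96.8 ± 27.1 CPM in WT libraries (adjusted p = 0.0798), without overlap. The U3 sum was 62.5 ± 41.2 CPM in PA+PB and 178 ± 60 CPM in WT libraries, and the sum of the Psi18S-1377 copies 138 ± 73 CPM in PA+PB and 260 ± 33 CPM in WT libraries (adjusted p = 0.196 for both). The U1 sum, at 111 ± 85 CPM in PA+PB and 163 ± 41 CPM in WT libraries, had an adjusted p of 0.410. The U5 sum was 237 ± 144 CPM in PA+PB and 161 ± 38 CPM in WT libraries, with a log2 fold change of 0.26 and an adjusted p of 0.931. The part that reads with several alignments played in the levels of single copies was not tested.

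**Figure D4:**
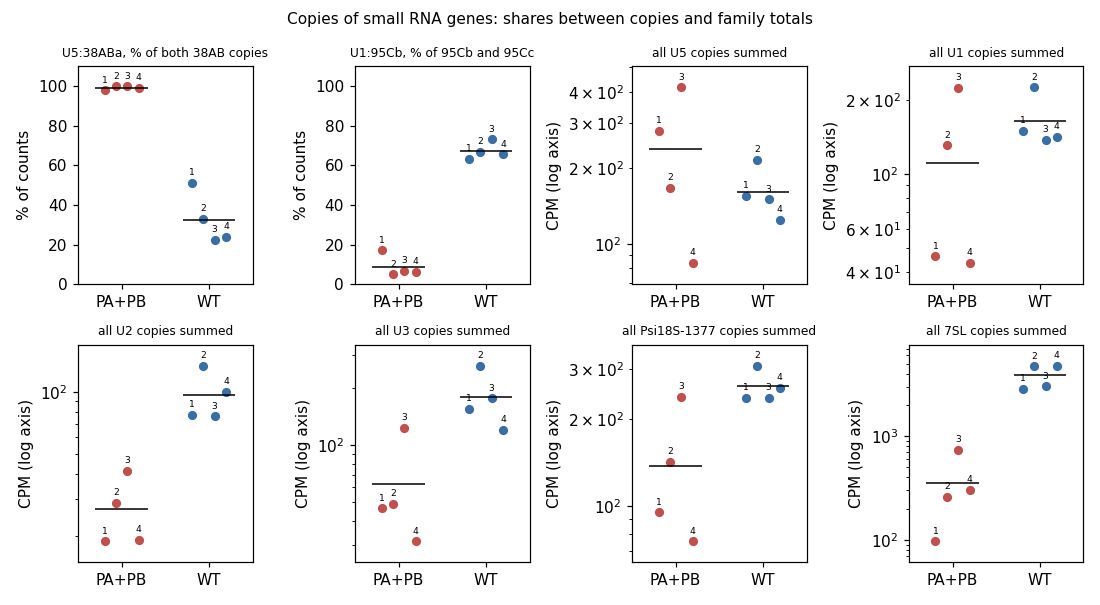
The first panels give the share of U5:38ABa in both 38AB copies and of U1:95Cb in 95Cb plus 95Cc (percent of counts), and the other 6 the family sums (CPM, log axis), in each library (numbers mark the replicate, black lines the mean), PA+PB left of WT. The copy shares do not overlap between PA+PB and WT, and of the sums 7SL is the one farthest apart, at 350 CPM in PA+PB and 3847 CPM in WT on average.

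Other abundant noncoding RNAs had levels unlike those of 7SL. RNaseMRP:RNA, which processes precursor rRNA, had 1118, 2136, 3210 and 1201 CPM in PA+PB libraries, against 938, 1219, 773 and 1206 CPM in WT libraries, and was not called (log2 fold change 0.51, adjusted p = 0.566). RNaseP:RNA, the tRNA-processing ribozyme, was at 212 to 769 CPM in PA+PB and 232 to 422 CPM in WT libraries. The transcription elongation regulator snRNA:7SKa was at 1534 to 2955 CPM in PA+PB and 1738 to 2772 CPM in WT libraries, with a log2 fold change of -0.25. All of these overlapped between the genotypes.

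The remaining genotypes of the series gave a scale for these levels, from normalization over all 20 libraries. On it, 7SLRNA:CR32864 was at 51.3 to 394 CPM in PA+PB libraries and at 1940 to 3499 CPM in WT, 2141 to 4195 CPM in null, 2950 to 5162 CPM in PA and 1272 to 5726 CPM in PB libraries, so that PA+PB was the 1 genotype with low values. For snoRNA:U3:54Ab the PA+PB libraries were at 2.56 to 4.91 CPM, the WT libraries at 68.0 to 163 CPM, the null libraries at 465 to 693 CPM, the PA libraries at 0.711 to 58.6 CPM and the PB libraries at 1.86 to 163 CPM. CG11164 was at 1.22 to 10.4 CPM in PA+PB and 66.6 to 136 CPM in WT libraries, and stayed at or under 22.2 CPM in the null, PA and PB libraries, so that here WT was the genotype with high values. lncRNA:CR34335 was at 222 to 1010 CPM in PA+PB, 1054 to 1697 CPM in WT, 647 to 1074 CPM in null, 6.25 to 41.4 CPM in PA and 1.86 to 56.5 CPM in PB libraries. These values are descriptions, with no test between genotypes.

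By RNA class, no share of gene counts passed the adjusted threshold. A class that was fully separated, alone among the 9, could not pass, since the smallest exact permutation p of 0.0286 then adjusts to 0.257. The 7SL, RNase P and RNase MRP RNAs together took 0.266 ± 0.101% of gene counts in PA+PB and 0.494 ± 0.125% in WT libraries (2-sided exact permutation test, p = 0.0571, adjusted over 9 classes 0.257). Histone genes, most of them near-identical repeats whose counts are uncertain for that reason, took 0.0145 ± 0.0016% in PA+PB and 0.00488 ± 0.00143% in WT libraries, without overlap (exact permutation p = 0.0286, adjusted 0.257). Ribosomal protein genes took 14.7 ± 4.1% in PA+PB and 11.8 ± 2.1% in WT libraries (adjusted p = 0.743, exact permutation test), where PA+PB replicate 3 was the highest. Without that library and WT replicate 1 the share was 12.8 ± 1.5% in PA+PB and 12.0 ± 2.5% in WT libraries (SD, n = 3 each). Mitochondrially encoded genes took 1.23 ± 0.39% in PA+PB and 1.31 ± 0.45% in WT libraries, and snRNAs 0.292 ± 0.077% in PA+PB and 0.265 ± 0.067% in WT libraries (adjusted p = 0.743 for both, exact permutation test). The median log2 fold change was close to that of all genes for X (-0.22), 2L and 2R (-0.18 each), 3L (-0.19) and 3R (-0.23). For the fourth chromosome, with 89 genes tested, it was 0.00.

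In the lists of genes for tissues and processes, no protein-coding list held a called gene. The 30 subunits of Gcn5 complexes had 0 called and a median log2 fold change of -0.10, beside -0.20 over all genes. Gcn5, the acetyltransferase, was at 53.1, 99.7, 139 and 83.5 CPM in PA+PB libraries and at 114, 86.6, 84.3 and 145 CPM in WT libraries, with overlap. The chiffon gene (chif), whose C-terminal product is in CHAT with Ada2b-PA, was at 368 to 529 CPM in PA+PB and 486 to 903 CPM in WT libraries (log2 fold change -0.47, adjusted p = 0.691). Of the subunits, Spt20 had all PA+PB levels (123 to 248 CPM) below all WT levels (311 to 569 CPM), with an adjusted p of 0.481, and Atac1 of the ATAC complex had all above (12.7 to 21.2 CPM in PA+PB, 7.31 to 12.1 CPM in WT, adjusted p = 0.694). That is 1 of 30 subunits in each direction, beside 3.59% and 1.14% of all genes tested.

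The other lists ranged in the same way around the median of all genes. Muscle (20 genes tested) had 0 called and a median log2 fold change of -0.24, neurons (18) of 0.05, glia (11) of -0.30, neural precursors (13) of 0.00, hemocytes and basement membrane (16) of 0.07 and trachea (10) of -0.60. Hox genes (8) had 0 called and a median of -0.93, and germ cell genes (7) 0 called and a median of -0.96. Abd-B was at 0 to 58.3 CPM in PA+PB libraries and 72.7 to 158 CPM in WT libraries, apart from each other but without a call (adjusted p = 0.786). Without PA+PB replicate 3 and WT replicate 1, Abd-B had a log2 fold change of -1.28 (adjusted p = 0.11). The medians there were -0.43 for Hox genes, -0.98 for germ cell genes, 0.03 for trachea, 1.74 for muscle, 0.50 for neurons, 0.01 for glia and 0.17 for hemocytes and basement membrane, beside -0.17 over all genes. Cuticle genes had a median of -0.21 over all 8 libraries and 3.03 in that setting. In that setting 4 of 20 muscle genes, 3 of 16 of hemocytes and basement membrane and 2 of 31 cuticle genes were called, all higher in PA+PB. PA+PB replicate 3 and WT replicate 1 were left out after their marker levels were seen, so calls in these lists are not independent of that choice. Over all 9643 genes tested there, 58 were called higher and 31 lower. Of 23 snRNAs 1 was called higher and 4 lower, and of 110 snoRNAs and scaRNAs 3 were called lower. Maternal RNAs (16) had a median of -0.46, segment polarity genes (13) of -0.38, septate junction genes (18) of -0.39, cell cycle genes (23) of -0.17 and ribosomal protein genes (88) of -0.10, all with 0 called. Noncoding lists carried the 6 noncoding calls: 2 of 22 snRNAs, 2 of 107 snoRNAs and scaRNAs, 1 of 4 in the 7SL, RNase P and RNase MRP list and 1 of 323 long noncoding RNAs, beside 0.0733% of all genes tested.

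What the 8 libraries shared was measured at equal depth, with each library thinned to 4788765 counts. At least 3 counts were found for 6263 of 17669 genes in all 8 libraries, among them 6055 of 13883 protein-coding genes, and for 5380 genes in none. The number of genes detected was 9541, 8654, 7140 and 10420 in PA+PB libraries, against 10345, 9416, 9529 and 8710 in WT libraries, a mean difference of -561 genes (2-sided exact permutation test, p = 0.629). Without PA+PB replicate 3 and WT replicate 1 the means were 9538 in PA+PB and 9218 in WT libraries, the other way round. PA+PB replicate 3 alone lacked 1044 genes that the other 7 libraries had, whereas each of the others alone lacked 3 to 95. Genes on 1 side only were few: CG32318 was found in all PA+PB libraries and in no WT library, and 9 genes were found in all WT libraries and in no PA+PB library, among them Loxl1, a lysyl oxidase gene, snoRNA:Psi18S-1347b and lncRNA:CR45284. Before thinning, lncRNA:CR45284 had 0 counts in each PA+PB library, against 96, 238, 177 and 183 counts in WT libraries, and CG32318 had 44, 460, 289 and 209 counts in PA+PB libraries, against 7, 0, 17 and 0 in WT libraries.

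Per kb of exon, genes of translation led the shared transcriptome. Of the 20 highest protein-coding genes, 18 encoded ribosomal proteins, and 40 of the highest 50. RpL41 averaged 29634 CPM per kb over the 8 libraries, and among the others were the mitochondrial cytochrome oxidase gene mt:CoIII with 7558, RpL29 with 5329 and RpL36 with 4090 CPM per kb. The elongation factor gene eEF1alpha1 averaged 2472 CPM per kb, the chromatin decondensation gene Df31 2399 and the tubulin gene betaTub56D 1892 CPM per kb. Noncoding RNAs reached similar levels per length, with 4585 CPM per kb for snRNA:7SKa, 3862 for RNaseMRP:RNA and 3221 for snoRNA:Psi28S-291. For 7SLRNA:CR32864 a mean over the 8 libraries describes neither genotype, since it had 515 CPM per kb in PA+PB and 9036 CPM per kb in WT libraries on average. The 100 genes with the most counts took 19.7 to 31.2% of gene counts in a library.

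Levels differed widely in how steady they were. Among 3411 genes with a mean of at least 50 CPM, 503 stayed within 2-fold over the 8 libraries and 404 spread over 10-fold, and the median SD of log2 CPM was 0.56. The cap-binding translational repressor eIF4EHP had the smallest SD, 0.10, with 97.0 to 119 CPM. The poly(A)-binding protein gene pAbp spanned 2457 to 3156 CPM, the G1 cyclin gene CycE 165 to 207 CPM, the tyrosyl-tRNA synthetase gene TyrRS 98.6 to 128 CPM and RpL36A 303 to 397 CPM. CG6700, Serinc, DIP1, CaBP1 and scaf6 made up the rest of the 10 steadiest, all with an SD of at most 0.14.

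The 10 most variable genes of that level were Cpr65Ea, TwdlM, CG2962, CG15022, EAChm, Osi15, TwdlB, CG15212, CG13059 and CG15740, with SDs of 3.98 to 4.31 on the log2 scale. TwdlM, a Tweedle cuticle protein gene, had 2.47, 4.36, 5.53 and 472 CPM in PA+PB libraries, against 2465, 4.54, 0.440 and 0.108 CPM in WT libraries. Of the 100 most variable genes, 71 were highest in WT replicate 1, 13 in PA+PB replicate 1 and 11 in WT replicate 3. Both a high and several low libraries were thus found within each genotype.

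Muscle genes also spread widely within each genotype. Mhc had 876, 118, 324 and 1399 CPM in PA+PB libraries, against 5117, 211, 90.6 and 12.3 CPM in WT libraries, a span that took in both extremes within WT. The collagen IV gene Col4a1, secreted by hemocytes and fat body into basement membranes, had 842, 112, 126 and 1950 CPM in PA+PB libraries, against 3835, 122, 222 and 42.7 CPM in WT libraries. In the muscle list 17 of 20 genes, and in the cuticle list 25 of 36, were highest in WT replicate 1. Summed over the cuticle list, the levels were 135 to 2738 CPM in PA+PB libraries and 14.5 to 17280 CPM in WT libraries. Mature neuron genes varied likewise, with 6.09 to 106 CPM of the active zone gene brp in PA+PB and 5.19 to 265 CPM in WT libraries.

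PA+PB replicate 3 was the lowest library for most genes of several tissue lists, among them 9 of 9 midgut, 8 of 8 salivary gland, 9 of 10 trachea, 12 of 16 hemocyte and basement membrane and 13 of 18 septate junction genes. The neuroblast gene mira, a carrier of cell fate determinants, had 223, 85.2, 24.3 and 132 CPM in PA+PB libraries, against 30.5, 108, 196 and 104 CPM in WT libraries. The pan-neuronal gene elav, whose promoter drives the Gal4 of both stocks, had 379, 211, 37.7 and 350 CPM in PA+PB libraries, against 136, 213, 448 and 273 CPM in WT libraries. Of the 13 neural precursor genes tested 12, and of the 8 Hox genes 7, were lowest in PA+PB replicate 3, and all 8 Hox genes were highest in WT replicate 3, the library labelled stages 12 to 15. WT replicate 1, with the most muscle and cuticle RNA, was low for mira and at 4.04 CPM of wor. At equal depth it had 3 of the 13 neural precursor genes at 0, against 5 in PA+PB replicate 3. In PA+PB replicate 3 the larval serum protein gene Lsp2 had 80.6 CPM and the larval serum protein receptor gene Fbp1 126 CPM, against 0 to 8.39 CPM and 0.230 to 14.2 CPM in the other 7 libraries.

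Of 16 maternally supplied RNAs tested, 3 were at 0 at equal depth in PA+PB replicate 3, 2 in PA+PB replicate 1, 1 in PA+PB replicate 2 and 0 in the other 5 libraries. The anterior determinant bcd had 27.6, 239, 217 and 114 CPM in PA+PB libraries, against 315, 229, 145 and 373 CPM in WT libraries. smaug (smg), which directs clearance of maternal messages, had 970, 4154, 5129 and 2529 CPM in PA+PB libraries, against 3616, 3609, 1816 and 4025 CPM in WT libraries, and was among the 15 most counted genes. PA+PB replicate 1 was the lowest library for 11 of 16 maternal RNAs, and the groups overlapped for both genes. On the scale over 20 libraries, bcd was at 34.2 to 241 CPM in PA+PB, 168 to 369 CPM in WT and 5.46 to 8.17 CPM in null libraries, and smg was at 1202 to 5435 CPM in PA+PB, 2102 to 3988 CPM in WT and 147 to 178 CPM in null libraries. The null libraries carry the same label of stages 12 to 14. The part of stage or pool makeup in these maternal levels was not tested, so they may not stand for stage 12 to 14 embryos. The zygotic cellularization genes nullo, Sry-alpha, bnk and halo, which act long before stage 12, were at or under 0.613 CPM in every control library, as were the eggshell gene Cp36 and the hemocyte gene He. The cellularization gene slam, by contrast, had 68.4 to 281 CPM in PA+PB and 124 to 313 CPM in WT libraries.

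The pools also differed in RNAs of the dosage compensation complex. lncRNA:roX1, an RNA of the dosage compensation complex that is made on the male X chromosome, had 884, 548, 81.9 and 358 CPM in PA+PB libraries, against 69.5, 186, 1112 and 731 CPM in WT libraries. The spread was as wide within each genotype as between them, and lncRNA:roX2 followed with 6.80 to 47.2 CPM in PA+PB and 6.76 to 78.4 CPM in WT libraries. The 2 libraries with the lowest roX1, WT replicate 1 and PA+PB replicate 3, also had the lowest mean log2 CPM of neural precursor genes (1.99 and 0.96). The part of sex makeup of the pools in these levels was not tested. X-linked genes together took 17.9 to 19.1% of gene counts in PA+PB and 18.2 to 18.8% in WT libraries.

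**Figure D5:**
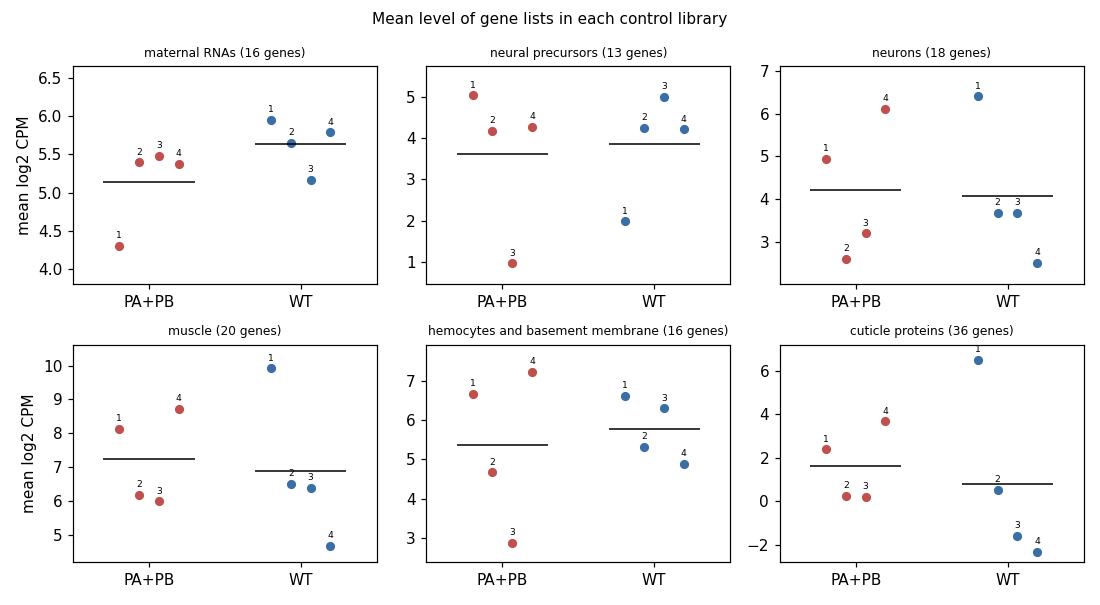
Mean log2 CPM of 6 gene lists in each library (numbers mark the replicate, black lines the mean), PA+PB left of WT. WT replicate 1 is highest for muscle (9.92) and cuticle (6.51), PA+PB replicate 3 is lowest for neural precursors (0.96), and PA+PB replicate 1 is lowest for maternal RNAs (4.30).

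Leaving out libraries changed how many genes were called more than which way the named ones moved. Without WT replicate 1, 19 genes were called, 8 higher and 11 lower, without PA+PB replicate 3 it was 2 genes, and without PA+PB replicate 2 it was 1 gene. Without both PA+PB replicate 3 and WT replicate 1, 89 genes were called, 58 higher and 31 lower in PA+PB, and all 7 genes were among them. In that setting 7SLRNA:CR32864 had a log2 fold change of -5.25 (adjusted p = 0.00042), and its copy 7SLRNA:CR42652 passed too, at -3.17 (adjusted p = 0.0151). The higher calls took in Col4a1 at 2.29 and the second collagen IV chain vkg at 2.37, and the muscle genes Mlc2 at 3.20 and up at 3.12, which have values of 0.37, 0.44, 0.31 and 0.10 over all 8 libraries and were called in neither direction there. In the remaining libraries Col4a1 had 842, 112 and 1950 CPM in PA+PB, against 122, 222 and 42.7 CPM in WT, and the values overlapped. WT replicate 1, left out here, had the highest level of Col4a1 and of 17 of the 20 muscle genes. These calls are thus not independent of the choice of libraries. DESeq2's Wald test with the same factor called 119 genes, 35 higher and 84 lower.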

How the data were processed

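RNA from pools of hand-picked embryos was made into ribodepleted libraries with the NuGEN Ovation kit. According to the study's methods and the labels, the authors trimmed reads with Trimmomatic, aligned them with HISAT2 to BDGP6 (dm6) and counted them per gene with HTSeq 0.11.1 at default settings, which drops reads with several alignments. The deposited values are raw counts per gene, 1 column per library. The header stands 1 cell to the right of its values, so columns were read by that shift, and the names match the labels. There were 0 unused columns. Left out were 5 summary rows, the GFP and Gal4 rows and 138 rRNA genes (0.825 to 2.62% of gene counts in the 8 libraries), leaving 17669 genes.

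The 4 PA+PB and 4 WT libraries were fitted with edgeR 4.0.16 (R 4.3.3), with TMM, filterByExpr, a quasi-likelihood test and 1 factor of unwanted variation by the replicate method of RUVSeq. P-values were adjusted by Benjamini-Hochberg over the 9550 genes tested, and a call needed an adjusted p under 0.05 and an absolute log2 fold change of at least 0.5. A fold change is PA+PB over WT. On simulated counts for 9021 genes in this comparison, 42 of 99 genes changed by 2 on the log2 scale and 86 of 99 changed by 4 were called, beside 11 unchanged genes. Shares and gene numbers were compared by exact permutation over libraries. A gene counted as detected from 3 counts in a library, or 0.0848 to 0.626 CPM before TMM scaling. Positions and gene types came from Ensembl release 115, which matched 17710 of 17807 gene rows.

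Named were Ada2b, genes within 50 kb of it, the called genes (at most 10 in each direction, with a mean of at least 5 CPM), called genes in lists, the 15 highest genes per kb of exon, the 10 steadiest and 10 most variable genes with a mean of at least 50 CPM, and markers and list members. The members and lists were chosen with earlier results of these data known. Alternatives were other size factors, filters, factors, DESeq2 1.42.0, all 20 libraries, a replicate block, equal depth and each library left out.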

Additional observations from a re-analysis of the deposited data

Results flagged for a closer look

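In 62 sets of 4 libraries, 8 had a highest or lowest library far from the other 3 for the spread of its set, where chance gives about 1 in 20. In PA+PB embryos these were the share of reads not aligned (63.2% in replicate 1), the tRNA share of gene counts (0.00234% in replicate 1), lncRNA:CR34335 (953 CPM in replicate 3), snRNA:U5:38ABb (4.11 CPM in replicate 1) and the mean log2 CPM of maternal RNAs (4.30 in replicate 1, the lowest). In WT embryos they were, all in replicate 2, the share of gene counts on ribosomal proteins (14.9%), on mitochondrially encoded genes (1.98%) and snRNA:U1:95Cb (145 CPM).

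The rows for the transgene markers, which entered no comparison, held few counts. The WT labels name elav-Gal4 and GFP, and by the study's crosses the PA+PB embryos carried both as well. GFP had 0, 0, 0 and 4 counts in PA+PB libraries and 17, 0, 4 and 22 counts in WT libraries, at most 22. Gal4 had 0, 0, 64 and 1 counts in PA+PB libraries and 21, 62, 10 and 11 counts in WT libraries, at most 64. PA+PB replicates 1 and 2 thus had 0 counts of either, at 4828612 and 12591709 gene counts.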

How the results depend on the processing

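The number of genes called moved with most settings. It was 4 with DESeq2 size factors, 12 (3 higher, 9 lower) with at least 1 count in each library, 1 without the factor, 2 and 1 with all 20 libraries and 1 or no factor, and 119 with the DESeq2 Wald test. With single libraries left out it ranged from 1 to 19. It was 89 without both PA+PB replicate 3 and WT replicate 1, and 1 with copies summed, both settings chosen after seeing the data. Without a filter it was 5, with 2 factors 9 and at equal depth 6. A replicate block gave 0 calls with the factor and 0 without it, with 494 and 166 genes at an unadjusted p under 0.05. Same-numbered libraries had correlations of 0.0964, 0.140, -0.360 and -0.452 of their deviations from the genotype means, so the numbers were not taken to pair them. Of the called genes, 7SLRNA:CR32864 passed in 17 of 20 settings, snoRNA:U3:54Ab in 16 of 20, snRNA:U1:95Cb in 10 of 20, snoRNA:Psi18S-1377d and snRNA:U2:34ABa in 7 of 20 each, CG11164 in 8 of 21 and lncRNA:CR34335 in 5 of 21, with no change of sign. The difference in genes detected turned to 55.5 with a floor of 10 counts, and was -1438 with a floor of 1 count (exact permutation p = 0.143) and -1874 without thinning (p = 0.0857). With all counts in the column as the denominator, the class differences in percentage points turned to -1.25 for ribosomal proteins, -0.0328 for snRNAs, -0.000122 for tRNAs and -0.615 for the 10 most counted genes, and passed at -0.182 for mitochondrially encoded genes, -0.0381 for snoRNAs and -0.0955 for the 7SL, RNase P and RNase MRP RNAs (adjusted p = 0.0429 by exact permutation, 0.193 for tRNAs). Reads on genes made up 10.4 to 20.3% of the column in PA+PB and 19.6 to 32.2% in WT libraries. Other causes were not tested. Depth limits what the 4 PA+PB libraries can show of genes with few counts.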
